A study of Mus musculus with 16 samples.

Results

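Axon guidance ligands and receptors were described in RNA-seq libraries of 4 mouse tendons, by gene symbol and family. They comprised the netrins, their Unc5 and Dcc receptors, the semaphorins of classes 3 to 7, the plexins and neuropilins, the Slits and Robos, and the ephrins with their Eph receptors. The deposited count table held 69 such genes among 41204, and 66 of them were among the 23754 genes that passed the filter on low counts. The table was made from tendons of C57BL/6J mice, an inbred laboratory strain, with 4 libraries each of Supraspinatus, the rotator cuff tendon above the shoulder, Patellar, the tendon between kneecap and shin, Flexor, a tendon of the forepaw, and Achilles, at the heel. No treatment or genetic change was labelled, and the sources used here do not give age, sex or whether animals were pooled. The study's design text names expression differences between each of the tendons as its question.

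These gene families are known for steering growing axons, and all of them also act outside the nervous system. Netrins and Slits are secreted, class 3 semaphorins are secreted and bind a neuropilin that passes the signal to a plexin, and the other semaphorins listed here sit at the cell surface and bind plexins directly. Ephrins are bound to the membrane and signal through Eph receptor tyrosine kinases on a neighbouring cell, often in both directions. In limbs they are known for the routing of motor and sensory nerves, the shaping of blood vessels and the sorting of cells.

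Libraries held between 34559686 and 107805065 counts, and the 4 Patellar libraries were the smallest. In the same libraries, 7 genes whose reads look like ribosomal RNA took 29.7% ± 12.1 of counts in Patellar (SD, n = 4), against 3.27% ± 0.329 in Supraspinatus, 2.17% ± 0.275 in Flexor and 4.18% ± 0.665 in Achilles. Of 11 tendon markers all were detected in each tendon, and they took 1.84% ± 1.06 of counts in Supraspinatus, 4.58% ± 1.62 in Patellar, 2.29% ± 0.174 in Flexor and 2.78% ± 1.19 in Achilles. Skeletal muscle markers took 13.1% ± 0.43, 0.332% ± 0.389, 8.22% ± 1.19 and 6.66% ± 2.05 of counts in the same order. Markers of Schwann cells and nerve, where several guidance genes are known to be active, took 0.0453% ± 0.00336, 0.0668% ± 0.0185, 0.378% ± 0.154 and 0.367% ± 0.219. Guidance genes together took 0.144% ± 0.01695 of counts in Supraspinatus, 0.142% ± 0.0359 in Patellar, 0.142% ± 0.00579 in Flexor and 0.146% ± 0.0177 in Achilles. All these shares are of total counts, rRNA-like genes included. Those genes thus lowered the other shares more in Patellar than elsewhere, and the likeness of the guidance gene shares depends on this total. In such bulk samples fewer cells of a type and less RNA per cell cannot be told apart.

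Levels are given in CPM, the counts of a gene relative to its library's total as scaled by edgeR's TMM method, which serve to compare 1 gene between libraries. Of the 69 genes, 11 averaged under 1 CPM over the 16 libraries, 29 lay from 1 to 10, 19 from 10 to 50 and 10 at 50 or above. To compare genes with each other, CPM was divided by the length of each gene's exons. On this scale the secreted Sema3c stood highest at 27 CPM per kb, followed by Sema3b of the same class at 15.7, the netrin Ntn4 at 15.5 and the ephrin Efna1 at 13.3 CPM per kb. Among receptors the highest levels were those of Plxnb2 at 11.3, the neuropilin Nrp1 at 10.4 and Ephb4 at 8.08 CPM per kb. The leading members of the remaining families were Sema6c at 7.89, Slit3 at 6.92, Robo4 at 4.65, Efnb1 at 4.3, Unc5a at 1.99 and Epha2 at 1.32 CPM per kb. EphA receptors were thus the family whose leading member was lowest.

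**Figure D1:**
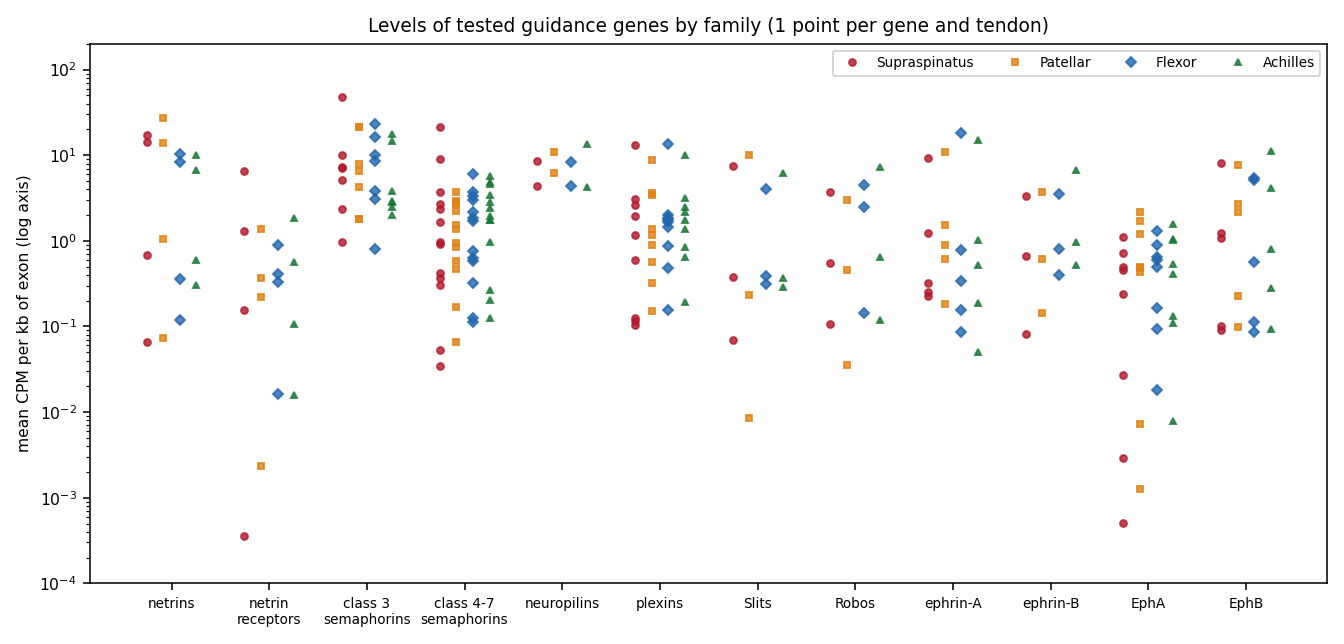
Level of each tested guidance gene by family, as mean CPM per kb of exon on a log axis, with 1 point per gene and tendon. Sema3c, at 26.99 CPM per kb over all libraries, tops the class 3 semaphorins, and no EphA receptor averages above the 1.32 CPM per kb of Epha2.

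Of the 3 genes that did not pass the filter, Dcc, the attractive netrin receptor, had 6 counts over the 4 Supraspinatus libraries, 11 in Patellar, 0 in Flexor and 8 in Achilles. Epha8 had 18, 2, 4 and 0 counts in the same order. Robo3, a Robo known from axons that cross the midline, had 4, 2, 3 and 14 counts. Of the 11 counts of Dcc in Patellar, 10 lay in replicate 3.

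Among the 66 genes tested, 55 differed among the 4 tendons at an adjusted p under 0.05, beside 64.9% of all genes tested. The 11 that did not pass were Efna4, Epha1, Epha10, Ephb1, Ephb4, Ntn5, Plxna3, Robo2, Sema4f, Sema5b and Sema6d. In Supraspinatus minus Patellar 28 guidance genes passed, 8 higher and 20 lower, beside 53.3% of all genes (26.4% higher and 26.8% lower). Supraspinatus minus Flexor gave 32, 15 higher and 17 lower, beside 27.1% of all genes (14.7% and 12.4%). Supraspinatus minus Achilles gave 35, 12 higher and 23 lower, beside 33.6% (16.9% and 16.7%). Patellar minus Flexor gave 36, 20 higher and 16 lower, beside 50.3% (24.2% and 26.2%). Patellar minus Achilles gave 30, 12 higher and 18 lower, beside 38.4% (17.4% and 21.1%). Flexor minus Achilles gave 18, 6 higher and 12 lower, beside 16.2% (6.5% and 9.72%), and it gave 11 without Flexor replicate 1, 2 or 3.

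As shares of the 66 genes, 12.1% were higher and 30.3% lower in Supraspinatus minus Patellar, and the median log2 difference was -0.38 over the guidance genes, beside -0.081 over all genes tested. Supraspinatus minus Flexor had 22.7% higher and 25.8% lower, with a median of -0.049, beside -0.072. Relative to Achilles, Supraspinatus had 18.2% higher and 34.8% lower, with a median of -0.52, beside -0.038. Patellar minus Flexor had 30.3% higher and 24.2% lower, with a median of -0.015, beside -0.0095, and Patellar minus Achilles 18.2% higher and 27.3% lower, with a median of -0.032, beside -0.014. In Flexor minus Achilles 9.09% were higher and 18.2% lower, with a median of -0.13, beside 0.00040. These shares were not tested against those of all genes.

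**Figure D2:**
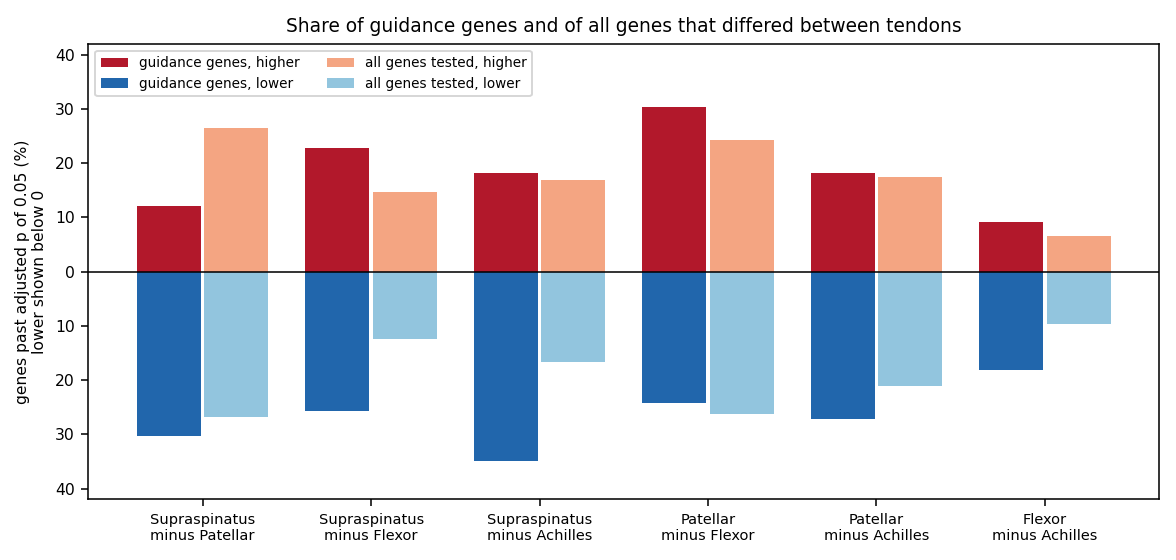
Share of the 66 tested guidance genes (dark bars) and of all 23754 tested genes (pale bars) past an adjusted p of 0.05 in each comparison, with genes higher in the first-named tendon above 0 and lower ones below. In Supraspinatus minus Achilles 34.8% of guidance genes are lower, beside 16.7% of all genes.

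Distinct genes were those that passed in the same direction against each of the other 3 tendons. In Supraspinatus 4 guidance genes were distinctly higher (Sema3c, Sema4d, Sema6c and Unc5a), beside 7.06% of all genes, and 10 distinctly lower (Efna5, Epha3, Epha5, Ephb6, Plxnb1, Sema3b, Sema3g, Sema4g, Sema5a and Slit2), beside 5.19%. Patellar had 5 distinctly higher (Epha5, Epha7, Ephb3, Nrp2 and Ntn4), beside 10.5%, and 3 distinctly lower (Plxna2, Sema4d and Slit1), beside 14.2%. Without Patellar replicate 2 the Patellar total of 8 became 17. In Flexor Robo1 was distinctly higher, beside 1.7% of all genes, and Plxnd1, Sema3f, Sema6b and Slit3 were distinctly lower, beside 3.44%, a total of 5 that became 3 without Flexor replicate 2 or 3. Achilles had Sema4c and Sema6a distinctly higher, beside 1.15%, and Sema3d distinctly lower, beside 0.581%, a total of 3 that became 1 without Flexor replicate 3 and 6 without Patellar replicate 2.

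**Figure D3:**
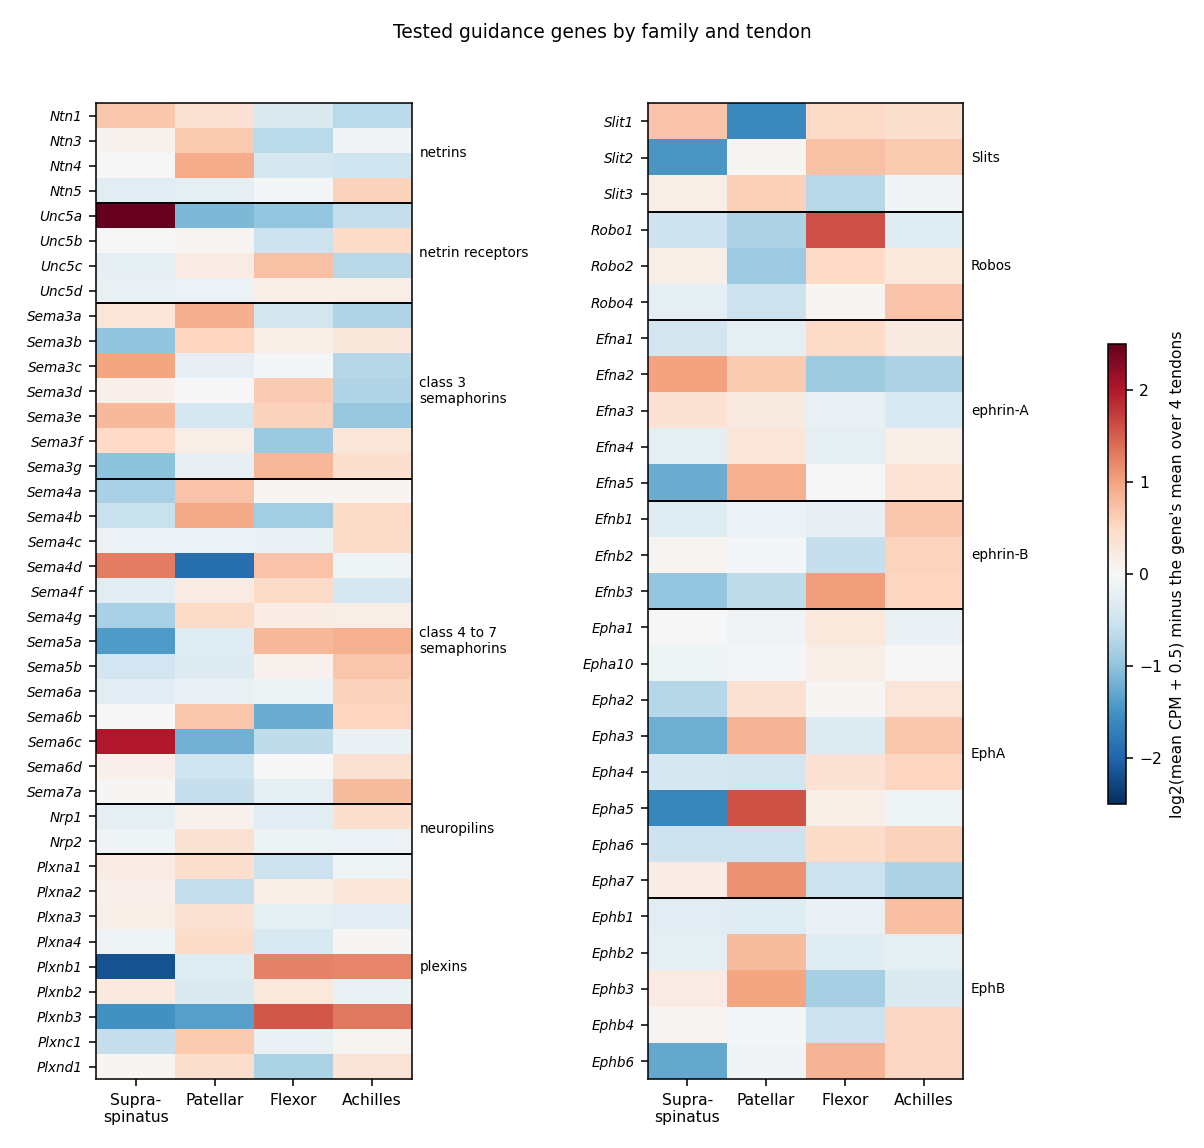
Tested guidance genes by family (lines) and tendon (columns), coloured by log2(mean CPM + 0.5) minus the gene's mean over the 4 tendons, so that red is above and blue below that mean. Supraspinatus is the red column for Unc5a and Sema6c, while Plxnb1 and Plxnb3 are red in Flexor and Achilles.

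Promoter sequence is shown for 5 genes whose levels set 1 tendon or a pair of tendons apart, which were chosen after their values were seen. Each runs from 250 bases before to 50 after a transcription start in the RefSeq table for GRCm38.p6, 5′ to 3′ on the strand of the gene, and the table matched 59 of the 69 genes with 75 starts. Capitals mark matches, on either strand, to CAGCTG, an E-box core, or to ACAAAG, a core bound by Sox factors. Of all 32851 promoters of that length, 16.301% hold CAGCTG and 18.712% ACAAAG, and a longer motif like that of MEF2 factors (CTA, any 4 bases, TAG) is in 3.686%. Among the 75 guidance gene promoters 12 hold CAGCTG, 10 hold ACAAAG and 1 holds the MEF2-like motif. A match is a description of the letters and not a binding site.
Unc5a, chr13:54949161-54949460, + strand: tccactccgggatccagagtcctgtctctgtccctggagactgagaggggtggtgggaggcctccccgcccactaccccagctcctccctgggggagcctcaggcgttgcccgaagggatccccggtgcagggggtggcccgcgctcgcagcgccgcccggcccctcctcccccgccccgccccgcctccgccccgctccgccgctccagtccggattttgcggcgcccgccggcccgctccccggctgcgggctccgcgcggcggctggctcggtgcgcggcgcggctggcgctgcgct
Sema6c, first start, chr3:95160170-95160469, + strand: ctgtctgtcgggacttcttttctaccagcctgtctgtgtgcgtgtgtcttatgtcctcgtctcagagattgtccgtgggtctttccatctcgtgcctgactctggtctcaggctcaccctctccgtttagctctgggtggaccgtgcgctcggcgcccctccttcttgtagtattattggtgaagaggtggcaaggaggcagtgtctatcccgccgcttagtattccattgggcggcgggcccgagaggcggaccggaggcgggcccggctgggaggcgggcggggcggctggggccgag
Sema6c, second start, chr3:95164089-95164388, + strand: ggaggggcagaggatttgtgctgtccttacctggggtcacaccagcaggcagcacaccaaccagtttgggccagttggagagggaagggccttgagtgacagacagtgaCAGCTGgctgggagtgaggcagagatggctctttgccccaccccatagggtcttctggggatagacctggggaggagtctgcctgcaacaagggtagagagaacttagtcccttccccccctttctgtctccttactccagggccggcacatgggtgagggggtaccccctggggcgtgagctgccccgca
Epha5, chr5:84417333-84417632, − strand: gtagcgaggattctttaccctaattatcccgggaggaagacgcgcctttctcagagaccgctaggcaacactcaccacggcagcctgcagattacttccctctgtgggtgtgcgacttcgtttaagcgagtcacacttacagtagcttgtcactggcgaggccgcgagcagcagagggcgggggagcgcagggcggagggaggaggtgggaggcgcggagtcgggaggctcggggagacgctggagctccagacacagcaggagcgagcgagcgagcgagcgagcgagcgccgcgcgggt
Robo1, chr16:72662899-72663198, + strand: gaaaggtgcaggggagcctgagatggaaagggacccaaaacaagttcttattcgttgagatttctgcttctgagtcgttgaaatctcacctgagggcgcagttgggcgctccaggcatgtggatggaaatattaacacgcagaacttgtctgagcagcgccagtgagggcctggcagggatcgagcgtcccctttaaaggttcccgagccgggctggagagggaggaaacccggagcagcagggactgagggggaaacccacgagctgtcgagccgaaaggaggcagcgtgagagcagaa
Plxnb3, chrX:73756853-73757152, + strand: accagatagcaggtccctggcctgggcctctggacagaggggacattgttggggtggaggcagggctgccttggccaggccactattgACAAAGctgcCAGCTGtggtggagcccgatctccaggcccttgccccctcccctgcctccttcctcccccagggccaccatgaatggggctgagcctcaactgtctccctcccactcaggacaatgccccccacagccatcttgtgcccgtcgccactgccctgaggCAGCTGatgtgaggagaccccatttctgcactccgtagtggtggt
The Unc5a promoter holds 37 CpG dinucleotides and no match to any of the 3 motifs, against a median of 7 CpG dinucleotides over all promoters. The 2 Sema6c starts differ, with 23 CpG dinucleotides and no match at the first and 3, with CAGCTG 141 bases before the start, at the second. Epha5 and Robo1 hold 30 and 15 CpG dinucleotides and no match, and the Robo1 start lies within the GENCODE gene, which begins at 72308306. Plxnb3 holds 4 CpG dinucleotides, with CAGCTG 152 bases before the start and again at base 6 after it, and ACAAAG 162 bases before it.

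Of the netrins, Ntn1 was higher in Supraspinatus and Patellar than in Flexor and Achilles, and Ntn4 was highest in Patellar. Ntn1, the founding netrin, stood at 102, 123, 102 and 105 CPM in Supraspinatus, 94.6, 76.6, 68.7 and 109.7 in Patellar, 56.5, 54.8, 56.2 and 41.6 in Flexor and 46.9, 50.4, 27.2 and 45.1 in Achilles. All Supraspinatus and Patellar libraries lay above all Flexor and Achilles libraries. The log2 difference was 1.05 ± 0.18 (adjusted p = 0.00047) in Supraspinatus minus Flexor and 1.35 ± 0.19 (adjusted p = 5.6e-05) in Supraspinatus minus Achilles. For Patellar it was 0.74 ± 0.18 (adjusted p = 0.0032) against Flexor and 1.04 ± 0.18 (adjusted p = 0.0004) against Achilles.

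Ntn4 (ENSMUSG00000020019, chromosome 10, 93640681 to 93747207 in GRCm38), a netrin that is known as a basement membrane component, stood at 51.6, 62.4, 54.7 and 43.2 CPM in Supraspinatus, 86.9, 79.9, 77 and 164 in Patellar, 40.3, 45.1, 36.7 and 34.6 in Flexor and 36.8, 43.3, 36.1 and 33.3 in Achilles. Every Patellar library was above every other library, with replicate 4 far above the other three. For Ntn4, Patellar minus Achilles was 1.45 ± 0.21 (adjusted p = 7.1e-05) and Patellar minus Flexor 1.38 ± 0.21 (adjusted p = 5.3e-05). Supraspinatus minus Patellar was -0.95 ± 0.21 (adjusted p = 0.0012), and -0.61 without Patellar replicate 4. Ntn3 was low and differed in Patellar minus Flexor at 1.54 ± 0.42 (adjusted p = 0.0063), and Ntn5, whose exons overlap an antisense gene over 23.4% of their length, did not pass in any comparison.

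Among the netrin receptors, Unc5a was highest in Supraspinatus. Unc5 proteins mediate repulsion by netrins and are known as dependence receptors. Unc5a (ENSMUSG00000025876, chromosome 13, 54949411 to 55006018) stood at 29.3, 22, 27.7 and 31 CPM in Supraspinatus, 1.13, 1.25, 2.53 and 1.16 in Patellar, 2.08, 1.99, 1.38 and 1.45 in Flexor and 2.25, 2.36, 2.84 and 2.11 in Achilles. The 4 Supraspinatus libraries lay far above the other 12, of which the highest stood at 2.84 CPM. For Unc5a, Supraspinatus minus Patellar was 4.2 ± 0.27 (adjusted p = 1.8e-08), minus Flexor 3.99 ± 0.26 (adjusted p = 4.1e-08) and minus Achilles 3.52 ± 0.26 (adjusted p = 3.1e-07). Patellar minus Achilles was -0.68 ± 0.25 (adjusted p = 0.04), and -1.05 without Patellar replicate 3, which at 2.53 CPM lay above the other Patellar libraries. The Unc5a call in Patellar minus Achilles was lost in 9 of 16 other settings, which included leaving out Patellar replicates 1, 2 or 4 or Achilles replicates 1, 2, 3 or 4 (adjusted p up to 0.18). Skeletal muscle markers took their largest share of counts in Supraspinatus too. Flexor had muscle markers at 8.22% ± 1.19 of counts and Unc5a at 1.73 ± 0.359 CPM. Patellar had muscle markers at 0.332% ± 0.389 of counts and Unc5a at 1.52 ± 0.68 CPM (SD, n = 4 each). Single markers of the muscle list differed in their order of tendons, which its summed share does not show. Myh4 averaged 27949 CPM in Supraspinatus, 111 in Patellar, 8998 in Flexor and 352 in Achilles. Myh7 averaged 7.58, 68.6, 11.8 and 3622.5 CPM in the same order. The part of muscle in the Unc5a difference was not tested.

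Unc5b, the Unc5 receptor known from blood vessels, stood at 7.46, 5.16, 8.7 and 11.3 CPM in Supraspinatus, 8.11, 9.36, 7.08 and 10.3 in Patellar, 4.3, 5.08, 4.31 and 8.6 in Flexor and 12, 16, 8.14 and 10.6 in Achilles. The ranges of all tendons overlapped, and Flexor minus Achilles was -1.06 ± 0.28 (adjusted p = 0.015). The Unc5b call in Flexor minus Achilles was lost in 3 of 17 other settings, those without Flexor replicates 1, 2 or 3 (adjusted p up to 0.058). Unc5c stood at 4.1, 2.7, 3.8 and 1.36 CPM in Supraspinatus, 4.55, 2.12, 7.57 and 2.77 in Patellar, 5.75, 7.63, 5.71 and 6.14 in Flexor and 2.36, 1.87, 2.65 and 1.33 in Achilles. Flexor libraries lay above all Supraspinatus and Achilles libraries, and Patellar spread over both. For Unc5c, Flexor minus Achilles was 1.62 ± 0.39 (adjusted p = 0.0096), Supraspinatus minus Flexor -1.08 ± 0.38 (adjusted p = 0.048) and Patellar minus Achilles 1.04 ± 0.39 (adjusted p = 0.044), and the last was 0.59 without Patellar replicate 3. The Unc5c call in Supraspinatus minus Flexor was lost in 10 of 16 other settings, which included leaving out Supraspinatus replicates 2, 3 or 4 or Flexor replicates 1, 2, 3 or 4 (adjusted p up to 0.12). The Unc5c call in Patellar minus Achilles was lost in 8 of 15 other settings, which included leaving out Patellar replicates 1 or 3 or Achilles replicates 1, 2 or 4 (adjusted p up to 0.2). Unc5d had between 0 and 0.340 CPM in every library. It passed in Supraspinatus minus Flexor (adjusted p = 0.017) and in Supraspinatus minus Achilles (adjusted p = 0.015), and no fold is given against so few counts. The Unc5d calls were lost in 3 of 15 other settings against Flexor (adjusted p up to 0.056) and 1 of 15 against Achilles (adjusted p up to 0.089).

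All 7 class 3 semaphorins passed the test over the 4 tendons, as did 64.9% of all genes. Sema3c was highest in Supraspinatus, Sema3e was higher in Supraspinatus and Flexor, and Sema3a higher in Supraspinatus and Patellar. Sema3b and Sema3g were lowest in Supraspinatus, Sema3f in Flexor and Sema3d in Achilles. Sema3c (ENSMUSG00000028780, chromosome 5, 17574281 to 17730268), a secreted ligand of neuropilins known from heart outflow tract development, stood at 312, 358, 349 and 368 CPM in Supraspinatus, 156, 144, 108 and 196 in Patellar, 178, 168, 200.4 and 124 in Flexor and 112, 126, 69 and 115 in Achilles. Each Supraspinatus library was above all 12 others. The log2 difference was 1.2 ± 0.2 (adjusted p = 0.00013) against Patellar, 1.05 ± 0.2 (adjusted p = 0.001) against Flexor and 1.72 ± 0.21 (adjusted p = 1.7e-05) against Achilles.

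Sema3e, which binds plexin-D1 without a neuropilin, stood at 71.5, 116, 122 and 65.6 CPM in Supraspinatus, 53.3, 36.7, 39.8 and 29.5 in Patellar, 62.9, 97.3, 86 and 72.4 in Flexor and 29.3, 36.5, 21.3 and 22.3 in Achilles. Supraspinatus and Flexor libraries all lay above all Patellar and Achilles libraries. Supraspinatus minus Achilles was 1.78 ± 0.24 (adjusted p = 5.6e-05), Supraspinatus minus Patellar 1.24 ± 0.24 (adjusted p = 0.00047), Patellar minus Flexor -1.0 ± 0.24 (adjusted p = 0.0026) and Flexor minus Achilles 1.54 ± 0.24 (adjusted p = 0.00054). Its receptor gene Plxnd1, known from endothelium, was lowest in Flexor. Plxnd1 stood at 15.5, 14.4, 15.9 and 30.2 CPM in Supraspinatus, 17.1, 33.1, 29.7 and 20.5 in Patellar, 11.3, 9.04, 9.28 and 12.3 in Flexor and 28.2, 24.2, 22.6 and 17.5 in Achilles. The Flexor libraries were below every other library, and Supraspinatus replicate 4 was well above the other Supraspinatus libraries. For Plxnd1, Flexor minus Achilles was -1.14 ± 0.25 (adjusted p = 0.0058) and Patellar minus Flexor 1.26 ± 0.25 (adjusted p = 0.00067), while Supraspinatus minus Flexor was 0.86 ± 0.25 (adjusted p = 0.018) and 0.55 without Supraspinatus replicate 4. The Plxnd1 call in Supraspinatus minus Flexor was lost in 3 of 17 other settings, those without Supraspinatus replicate 4 or Flexor replicates 2 or 3 (adjusted p up to 0.081).

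Sema3a, the repellent that binds neuropilin-1, stood at 70.2, 58.8, 56.1 and 102 CPM in Supraspinatus, 156, 90.7, 66.5 and 125 in Patellar, 38.5, 44.1, 44.8 and 41.5 in Flexor and 27.9, 48, 22.2 and 38.8 in Achilles. All Supraspinatus and Patellar libraries were above all Flexor and Achilles libraries. Patellar minus Achilles was 1.68 ± 0.27 (adjusted p = 0.00019), Patellar minus Flexor 1.38 ± 0.27 (adjusted p = 0.00053) and Supraspinatus minus Achilles 1.07 ± 0.27 (adjusted p = 0.006), and Supraspinatus minus Flexor was 0.77 ± 0.27 (adjusted p = 0.043). The Sema3a call in Supraspinatus minus Flexor was lost in 8 of 17 other settings, which included leaving out Supraspinatus replicates 1 or 4 or Flexor replicates 1, 2, 3 or 4 (adjusted p up to 0.15).

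Sema3d stood at 51.9, 53.3, 59.3 and 77.9 CPM in Supraspinatus, 65.1, 62.4, 40.2 and 55.7 in Patellar, 74.8, 90.1, 96.8 and 85 in Flexor and 32.7, 42, 21.9 and 35.3 in Achilles. Achilles was low, with its highest library below every Supraspinatus and Flexor library, and overlapped only the lowest Patellar library. The log2 difference of Supraspinatus minus Achilles was 0.88 ± 0.19 (adjusted p = 0.0025), that of Patellar minus Achilles 0.76 ± 0.19 (adjusted p = 0.0057) and that of Flexor minus Achilles 1.39 ± 0.2 (adjusted p = 0.00022). Sema3f, which binds neuropilin-2, stood at 9.48, 11.4, 12 and 16.1 CPM in Supraspinatus, 5.33, 13.8, 8.61 and 9.88 in Patellar, 4.21, 4.77, 3.96 and 3.85 in Flexor and 14.2, 9.55, 9.34 and 8.94 in Achilles. Flexor libraries were the 4 lowest, and Achilles replicate 1 stood above the other Achilles libraries. For Sema3f, Flexor minus Achilles was -1.32 ± 0.25 (adjusted p = 0.0021), Supraspinatus minus Flexor 1.54 ± 0.25 (adjusted p = 0.00024) and Patellar minus Flexor 1.16 ± 0.25 (adjusted p = 0.0012).

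Both remaining class 3 genes were lower in Supraspinatus. Sema3b averaged 34.9 ± 21.1 CPM in Supraspinatus, 102 ± 13.2 in Patellar, 77.8 ± 28.2 in Flexor and 84.9 ± 33.7 in Achilles (SD, n = 4 each), with Supraspinatus minus Patellar at -1.54 ± 0.38 (adjusted p = 0.0026). The Sema3b call in Supraspinatus minus Flexor was lost in 7 of 17 other settings, which included leaving out Supraspinatus replicates 1, 2 or 3 or Flexor replicates 1, 2 or 4 (adjusted p up to 0.11). The Sema3b call in Supraspinatus minus Achilles was lost in 2 of 17 other settings, those without Supraspinatus replicate 3 or Achilles replicate 3 (adjusted p up to 0.053). Sema3g averaged 4.46 ± 1.32, 8.26 ± 4.3, 17.4 ± 2.91 and 12.8 ± 3.45 CPM in the same order, with Supraspinatus minus Flexor at -1.97 ± 0.34 (adjusted p = 0.00043). The Sema3g call in Supraspinatus minus Patellar was lost in 8 of 16 other settings, which included leaving out Supraspinatus replicates 2, 3 or 4 or Patellar replicates 2 or 3 (adjusted p up to 0.13).

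The neuropilins, co-receptors of class 3 semaphorins and of vascular endothelial growth factor, both differed among tendons. Nrp1 stood at 80.7, 77.9, 76.8 and 104 CPM in Supraspinatus, 53.7, 145, 131 and 98.9 in Patellar, 77.7, 70.9, 94.4 and 82 in Flexor and 155, 131, 103 and 144 in Achilles. Patellar ranged from below all other libraries to within the Achilles range, and Supraspinatus replicate 4 lay within the Achilles range. Supraspinatus minus Achilles was -0.64 ± 0.23 (adjusted p = 0.042) and Flexor minus Achilles -0.71 ± 0.23 (adjusted p = 0.047). The Nrp1 call in Supraspinatus minus Achilles was lost in 8 of 17 other settings, which included leaving out Supraspinatus replicates 1, 2 or 3 or Achilles replicates 1, 2 or 4 (adjusted p up to 0.11). The Nrp1 call in Flexor minus Achilles was lost in 9 of 17 other settings, which included leaving out Flexor replicates 1, 2, 3 or 4 or Achilles replicates 1, 2 or 4 (adjusted p up to 0.14). Nrp2 stood at 54.7, 43.1, 50.1 and 59.1 CPM in Supraspinatus, 63.2, 69.4, 84.9 and 72.7 in Patellar, 56.4, 53.3, 50.3 and 44.4 in Flexor and 57.2, 48.9, 44.3 and 49.9 in Achilles. All Patellar libraries were above all others. For Nrp2, Patellar minus Flexor was 0.5 ± 0.12 (adjusted p = 0.0032), Patellar minus Achilles 0.53 ± 0.12 (adjusted p = 0.0032) and Supraspinatus minus Patellar -0.49 ± 0.12 (adjusted p = 0.0038).

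Of the plexin-A genes, whose proteins carry the class 3 signal, Plxna2 was lower in Patellar, at 20.01 ± 6.03 CPM against 33.2 ± 5.4 in Supraspinatus, 34.1 ± 7.07 in Flexor and 37.6 ± 4.81 in Achilles. Its log2 difference in Patellar minus Achilles was -0.91 ± 0.21 (adjusted p = 0.0026). Plxna1 and Plxna4 were higher in Patellar than in Flexor, at 0.97 ± 0.24 (adjusted p = 0.0028) and 0.89 ± 0.21 (adjusted p = 0.0024), and Plxna3 did not pass in any comparison. Exons of Plxna1 overlap an antisense gene over 10.7% of their length, and the sources used here do not say whether counting used strand.

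Among the membrane semaphorins, Sema6c was highest in Supraspinatus and Sema4d lowest in Patellar. Sema6c (ENSMUSG00000038777, chromosome 3, 95160457 to 95174024), a transmembrane semaphorin of a class that binds plexin-A receptors, stood at 130.0, 105, 123 and 147 CPM in Supraspinatus, 9.99, 6.81, 21.9 and 14.3 in Patellar, 30.7, 20.1, 12.8 and 16.5 in Flexor and 31.7, 20.9, 33.4 and 24.8 in Achilles. Every Supraspinatus library was at 105 CPM or above and the highest of the others stood at 33.4. The log2 difference was 3.26 ± 0.33 (adjusted p = 9.4e-07) against Patellar, 2.66 ± 0.32 (adjusted p = 1.4e-05) against Flexor and 2.19 ± 0.32 (adjusted p = 8.7e-05) against Achilles. Patellar minus Achilles was -1.07 ± 0.31 (adjusted p = 0.013), with 1 Patellar library above the lowest Achilles library.

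Sema4d (ENSMUSG00000021451, chromosome 13, 51685529 to 51793747), the ligand of plexin-B1 and known from lymphocytes, stood at 72.8, 54.8, 75.7 and 73.5 CPM in Supraspinatus, 9.67, 7.42, 6.74 and 5.41 in Patellar, 64.4, 45.4, 40.1 and 35.3 in Flexor and 24.2, 22.4, 32.3 and 26.2 in Achilles. Patellar libraries were all at 9.67 CPM or below, and all others at 22.4 or above. For Sema4d, Supraspinatus minus Patellar was 3.24 ± 0.22 (adjusted p = 2.1e-08), Patellar minus Flexor -2.66 ± 0.21 (adjusted p = 1.7e-07), Patellar minus Achilles -1.84 ± 0.21 (adjusted p = 9e-06), Supraspinatus minus Achilles 1.4 ± 0.2 (adjusted p = 8.1e-05) and Flexor minus Achilles 0.82 ± 0.2 (adjusted p = 0.01). Supraspinatus minus Flexor was 0.58 ± 0.2 (adjusted p = 0.039), with Flexor replicate 1 inside the Supraspinatus range. The Sema4d call in Supraspinatus minus Flexor was lost in 6 of 17 other settings, those without Supraspinatus replicates 1, 3 or 4 or Flexor replicates 2, 3 or 4 (adjusted p up to 0.11). Muscle markers ran in the same order of tendons as Sema4d, and their part in the result was not tested.

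The receptor gene of Sema4d ran otherwise. Plxnb1 stood at 0.876, 0.864, 1.67 and 1.09 CPM in Supraspinatus, 3.38, 6.98, 8.54 and 2.99 in Patellar, 18, 15, 12.5 and 21.8 in Flexor and 17.3, 7.48, 25.8 and 15.8 in Achilles. Supraspinatus libraries were lowest, Patellar libraries next, and Flexor libraries all above them, while Achilles replicate 2 fell into the Patellar range. For Plxnb1, Supraspinatus minus Flexor was -3.9 ± 0.42 (adjusted p = 3.8e-06), Supraspinatus minus Achilles -3.88 ± 0.42 (adjusted p = 6.9e-06), Supraspinatus minus Patellar -2.28 ± 0.4 (adjusted p = 0.00018), Patellar minus Flexor -1.62 ± 0.38 (adjusted p = 0.0022) and Patellar minus Achilles -1.6 ± 0.38 (adjusted p = 0.0036).

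Plxnb3 (ENSMUSG00000031385, chromosome X, 73757090 to 73772514) encodes plexin-B3, the receptor of Sema5A. It stood at 0.692, 0.838, 0.611 and 1.16 CPM in Supraspinatus, 0.161, 3.22, 0.0694 and 0.511 in Patellar, 12.1, 10.4, 4.08 and 16.2 in Flexor and 8.78, 4.38, 14.5 and 8.26 in Achilles. Flexor and Achilles libraries were all at 4.08 CPM or above and all Supraspinatus and Patellar libraries at 3.22 or below, with Patellar replicate 2 apart from the other Patellar libraries. Supraspinatus minus Flexor was -3.69 ± 0.78 (adjusted p = 0.0022) and Supraspinatus minus Achilles -3.44 ± 0.78 (adjusted p = 0.003). For Plxnb3, Patellar minus Flexor was -3.33 ± 0.78 (adjusted p = 0.002) and -5.36 without Patellar replicate 2, and Patellar minus Achilles was -3.08 ± 0.77 (adjusted p = 0.005) and -5.14 without it. Schwann cell and nerve markers, too, took more of the counts in Flexor (0.205% to 0.581%) and Achilles (0.105% to 0.642%) than in Supraspinatus (0.0412% to 0.0494%) and Patellar (0.0511% to 0.0873%), and so did 2 further marker lists. Pericyte and smooth muscle markers took 0.0826% ± 0.0124 of counts in Supraspinatus, 0.101% ± 0.0267 in Patellar, 0.314% ± 0.0774 in Flexor and 0.315% ± 0.151 in Achilles, and osteoblast and bone markers 0.00352% ± 0.00179, 0.0131% ± 0.00699, 0.108% ± 0.0392 and 0.232% ± 0.0873 in the same order. Single markers of these 2 lists differed in their order of tendons, which the summed shares do not show. Acta2 averaged 106 CPM in Supraspinatus, 285 in Patellar, 1239 in Flexor and 1256 in Achilles, but Abcc9 averaged 229, 14.8, 134 and 103. Spp1 averaged 19.4, 93.2, 993 and 1505 CPM in the same order, but Alpl 18.7, 6.15, 16.1 and 19.1. The part of any of these marker lists in the Plxnb1 and Plxnb3 differences was not tested.

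The ligand gene Sema5a stood at 6.97, 8.42, 6.58 and 5.84 CPM in Supraspinatus, 7.95, 24.7, 12.8 and 17.4 in Patellar, 37.1, 36, 21.5 and 44.6 in Flexor and 40.5, 19.9, 47.6 and 37.3 in Achilles. Supraspinatus libraries were below all Flexor and Achilles libraries, and Patellar lay between them with overlap at both ends. Supraspinatus minus Achilles was -2.38 ± 0.33 (adjusted p = 5.6e-05), Supraspinatus minus Flexor -2.32 ± 0.33 (adjusted p = 6e-05) and Patellar minus Flexor -1.14 ± 0.32 (adjusted p = 0.0067). Plxnb2, the most abundant plexin, stood at 94.8, 89.9, 108 and 115 CPM in Supraspinatus, 58.6, 86.8, 59.5 and 63.8 in Patellar, 103, 104, 108 and 101 in Flexor and 77.5, 87.6, 58.2 and 84.6 in Achilles. Patellar libraries were all below all Supraspinatus and Flexor libraries. For Plxnb2, Supraspinatus minus Patellar was 0.6 ± 0.15 (adjusted p = 0.0026), and 0.36 when only genes with a mean of at least 5 CPM were kept. Patellar minus Flexor was -0.63 ± 0.15 (adjusted p = 0.002).

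**Figure D4:**
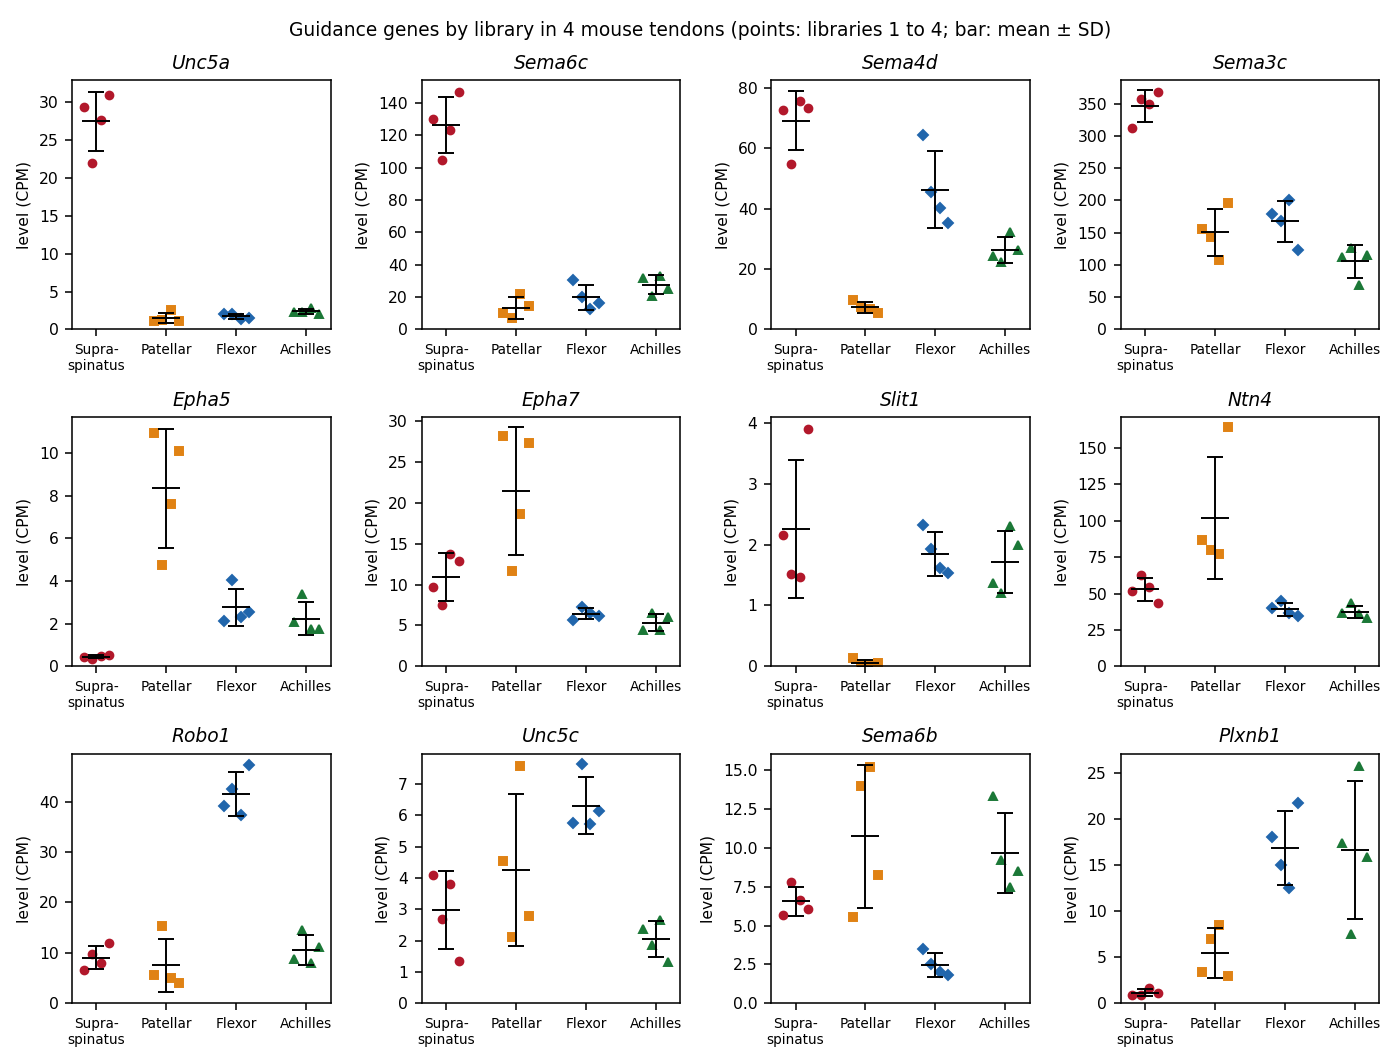
Level in CPM of 12 guidance genes in each of the 16 libraries, by tendon, with bars at the mean ± SD (n = 4). All 4 Supraspinatus points of Unc5a, Sema6c and Sema3c, all 4 Patellar points of Epha5 and Ntn4 and all 4 Flexor points of Robo1 lie above every other point of their panel.

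Sema6b was lower in Flexor and Sema6a higher in Achilles. Sema6b stood at 5.69, 7.82, 6.67 and 6.09 CPM in Supraspinatus, 5.54, 14, 15.2 and 8.26 in Patellar, 3.52, 2.54, 1.99 and 1.84 in Flexor and 13.4, 9.22, 7.51 and 8.51 in Achilles. No Flexor library reached the lowest library of any other tendon. For Sema6b, Flexor minus Achilles was -1.96 ± 0.31 (adjusted p = 0.0005), Patellar minus Flexor 2.12 ± 0.31 (adjusted p = 3.8e-05) and Supraspinatus minus Flexor 1.41 ± 0.3 (adjusted p = 0.0023). Sema6a stood at 25.2, 23.6, 19.8 and 25.3 CPM in Supraspinatus, 25.8, 33.9, 17.2 and 25.2 in Patellar, 31, 26.6, 22.2 and 25.8 in Flexor and 49.4, 43.3, 33.5 and 46.2 in Achilles. Achilles libraries were above all others except that Patellar replicate 2 exceeded the lowest of them. Supraspinatus minus Achilles was -0.88 ± 0.18 (adjusted p = 0.0014), Patellar minus Achilles -0.75 ± 0.18 (adjusted p = 0.0035) and Flexor minus Achilles -0.71 ± 0.18 (adjusted p = 0.013). The Sema6a call in Flexor minus Achilles was lost in 1 of 17 other settings, that without Flexor replicate 3 (adjusted p up to 0.051).

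Sema4b stood at 2.11, 2.16, 2.21 and 3.1 CPM in Supraspinatus, 7.74, 10.4, 6.25 and 6.54 in Patellar, 2.44, 1.6, 1.13 and 2.12 in Flexor and 6.37, 4.47, 4.56 and 6.47 in Achilles. Patellar and Achilles libraries were all above all Supraspinatus and Flexor libraries. For Sema4b, Patellar minus Flexor was 2.09 ± 0.27 (adjusted p = 1.1e-05), Supraspinatus minus Patellar -1.69 ± 0.26 (adjusted p = 5.7e-05), Supraspinatus minus Achilles -1.19 ± 0.26 (adjusted p = 0.0023) and Flexor minus Achilles -1.59 ± 0.26 (adjusted p = 0.00073). Adipocyte markers, too, took more of the counts in Patellar (0.811% to 2.5%) and Achilles (0.647% to 1.27%) than in Supraspinatus (0.0667% to 0.211%) and Flexor (0.0779% to 0.118%). So did red blood cell markers, at 0.0381% to 0.147% in Patellar and 0.0164% to 0.0208% in Achilles. These took 0.0055% to 0.00915% in Supraspinatus and 0.0036% to 0.0106% in Flexor. The part of both lists in the Sema4b differences was not tested. Sema4c stood at 14.1, 14.1, 15.1 and 25.4 CPM in Supraspinatus, 15.1, 20.9, 14.2 and 18.3 in Patellar, 19.9, 15.7, 12.4 and 19.8 in Flexor and 25.8, 25, 27.1 and 26.6 in Achilles. Achilles was highest but for Supraspinatus replicate 4, which lay among the Achilles values. Supraspinatus minus Achilles was -0.61 ± 0.2 (adjusted p = 0.029), Patellar minus Achilles -0.61 ± 0.2 (adjusted p = 0.025) and Flexor minus Achilles -0.62 ± 0.2 (adjusted p = 0.042). The Sema4c call in Supraspinatus minus Achilles was lost in 6 of 17 other settings, those without Supraspinatus replicates 1, 2 or 3 or Achilles replicates 1, 3 or 4 (adjusted p up to 0.091). The Sema4c call in Patellar minus Achilles was lost in 2 of 16 other settings, which included leaving out Achilles replicate 3 (adjusted p up to 0.053). The Sema4c call in Flexor minus Achilles was lost in 8 of 17 other settings, which included leaving out Flexor replicates 1, 2 or 3 or Achilles replicates 1, 2, 3 or 4 (adjusted p up to 0.14). Exons of Sema4c overlap an antisense gene over 7.27% of their length. Sema7a, which carries a lipid anchor and binds plexin-C1, passed only in Patellar minus Achilles, at -1.54 ± 0.41 (adjusted p = 0.0074), and at -2.36 without Patellar replicate 2. Plxnc1 passed only in Supraspinatus minus Patellar, at -1.63 ± 0.45 (adjusted p = 0.0057).

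Sema4g averaged 0.301 ± 0.0705 CPM in Supraspinatus, 1.46 ± 0.879 in Patellar, 1.1 ± 0.59 in Flexor and 1.08 ± 0.851 in Achilles (SD, n = 4 each). For Sema4g, Supraspinatus minus Patellar was -2.26 ± 0.59 (adjusted p = 0.0041), Supraspinatus minus Flexor -1.86 ± 0.57 (adjusted p = 0.024) and Supraspinatus minus Achilles -1.84 ± 0.57 (adjusted p = 0.021), and the last was -1.16 without Achilles replicate 3. The Sema4g call in Supraspinatus minus Flexor was lost in 4 of 16 other settings, those without Supraspinatus replicates 1, 3 or 4 or Flexor replicate 4 (adjusted p up to 0.1). The Sema4g call in Supraspinatus minus Achilles was lost in 6 of 16 other settings, which included leaving out Supraspinatus replicates 1, 3 or 4 or Achilles replicate 3 (adjusted p up to 0.11).

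Of the Slits, secreted repellents, each had another pattern. Slit1 (ENSMUSG00000025020, chromosome 19, 41600257 to 41743665) stood at 2.15, 1.52, 1.47 and 3.89 CPM in Supraspinatus, 0.138, 0.013, 0 and 0.0538 in Patellar, 2.32, 1.92, 1.61 and 1.52 in Flexor and 1.37, 1.2, 2.3 and 1.99 in Achilles. Patellar libraries held 6, 1, 0 and 2 counts, and every library of the other tendons held at least 116. The log2 difference was 5.45 ± 0.61 (adjusted p = 2.2e-06) in Supraspinatus minus Patellar, -5.16 ± 0.6 (adjusted p = 5e-06) in Patellar minus Flexor and -5.05 ± 0.6 (adjusted p = 1.5e-05) in Patellar minus Achilles. With so few Patellar counts the size of these differences is imprecise. Skeletal muscle markers, too, had their lowest share in Patellar, at 0.332% ± 0.389 of counts, and their part in the Slit1 differences was not tested.

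Slit2 stood at 2.16, 1.27, 2.3 and 1.42 CPM in Supraspinatus, 3.08, 11.1, 6.6 and 3.09 in Patellar, 12.3, 9.3, 3.57 and 14.4 in Flexor and 9.39, 2.74, 16 and 9.26 in Achilles. Supraspinatus libraries were all below all others, and Achilles replicate 2 was below the lowest Patellar library. For Slit2, Supraspinatus minus Flexor was -2.47 ± 0.54 (adjusted p = 0.0028) and Supraspinatus minus Achilles -2.38 ± 0.54 (adjusted p = 0.0031), and Supraspinatus minus Patellar was -1.74 ± 0.53 (adjusted p = 0.012). The Slit2 call in Supraspinatus minus Patellar was lost in 2 of 16 other settings, which included leaving out Patellar replicate 2 (adjusted p up to 0.077). Slit3, the most abundant Slit, stood at 45.4, 45.3, 36.9 and 52 CPM in Supraspinatus, 39.9, 58.7, 65.6 and 78.3 in Patellar, 27, 26, 27.3 and 17.8 in Flexor and 43.8, 37.5, 26.9 and 43.4 in Achilles. Flexor was lowest, and only Achilles replicate 3 fell into its range. Patellar minus Flexor was 1.31 ± 0.21 (adjusted p = 8.1e-05), Supraspinatus minus Flexor 0.87 ± 0.2 (adjusted p = 0.0045), Patellar minus Achilles 0.68 ± 0.2 (adjusted p = 0.015) and Flexor minus Achilles -0.63 ± 0.2 (adjusted p = 0.046). The Slit3 call in Patellar minus Achilles was lost in 3 of 16 other settings, which included leaving out Patellar replicate 4 or Achilles replicate 3 (adjusted p up to 0.066). The Slit3 call in Flexor minus Achilles was lost in 9 of 17 other settings, which included leaving out Flexor replicates 1, 2, 3 or 4 or Achilles replicates 1, 2 or 4 (adjusted p up to 0.11).

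Robo1, a Slit receptor, was highest in Flexor. Robo1 (ENSMUSG00000022883, chromosome 16, 72308306 to 73046095) stood at 6.65, 9.72, 8.04 and 11.9 CPM in Supraspinatus, 5.65, 15.3, 5.03 and 4.06 in Patellar, 39.1, 42.4, 37.4 and 47.2 in Flexor and 8.76, 14.6, 7.92 and 11.2 in Achilles. The lowest Flexor library stood at 37.4 CPM, and the highest of all other libraries at 15.3. For Robo1, Supraspinatus minus Flexor was -2.2 ± 0.35 (adjusted p = 0.00018), Patellar minus Flexor -2.45 ± 0.35 (adjusted p = 3.3e-05) and Flexor minus Achilles 1.97 ± 0.34 (adjusted p = 0.0012). Without Patellar replicate 2, which was at 15.3 CPM, the Patellar libraries of Robo1 ran between 4.06 and 5.65 CPM.

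Robo2 stood at 2.02, 1.95, 1.15 and 2.05 CPM in Supraspinatus, 0.322, 1.82, 0.174 and 0.0807 in Patellar, 2.25, 1.53, 2.73 and 3.23 in Flexor and 2.48, 1.34, 1.34 and 2.84 in Achilles. Patellar libraries other than replicate 2 were at 0.322 CPM or below, and the other tendons at 1.15 CPM or above. Patellar minus Flexor was -1.93 ± 0.64 (adjusted p = 0.019), and -3.58 without Patellar replicate 2. The Robo2 call in Patellar minus Flexor was lost in 1 of 15 other settings, that with only the 8 libraries of the pair (adjusted p up to 0.078). The test over all 4 tendons was not passed by Robo2. Robo4, an endothelial Robo, stood at 20.7, 17.7, 20.8 and 20.6 CPM in Supraspinatus, 10.8, 30.9, 10.9 and 11.6 in Patellar, 24.6, 25, 24.1 and 22.5 in Flexor and 40.4, 40.9, 40.02 and 33.2 in Achilles. Achilles was above every other library, Patellar replicate 2 included. For Robo4, Supraspinatus minus Achilles was -0.95 ± 0.26 (adjusted p = 0.011) and Patellar minus Achilles -1.26 ± 0.26 (adjusted p = 0.0015). Endothelial markers took 0.048% ± 0.00229 of counts in Supraspinatus, 0.0628% ± 0.0402 in Patellar, 0.0865% ± 0.0115 in Flexor and 0.127% ± 0.0238 in Achilles, and 0.118% in Patellar replicate 2, the highest of the Patellar libraries. Their part in the Robo4 difference was not tested.

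Among ephrin-A ligands, which attach to the membrane by a lipid anchor, Efna2 was higher in Supraspinatus and Patellar, and Efna5 was lowest in Supraspinatus. Efna1 stood at 16.6, 15.4, 18.7 and 17.5 CPM in Supraspinatus, 20.6, 27, 16.1 and 15.1 in Patellar, 29.4, 35.8, 28.8 and 38.4 in Flexor and 29.2, 29.7, 20.5 and 30.1 in Achilles. Flexor libraries were all above all Supraspinatus and Patellar libraries, and Achilles replicate 3 was apart from the other Achilles libraries. Supraspinatus minus Flexor was -0.96 ± 0.18 (adjusted p = 0.00075), Supraspinatus minus Achilles -0.68 ± 0.18 (adjusted p = 0.0077) and Patellar minus Flexor -0.74 ± 0.18 (adjusted p = 0.0025). Efna2 stood at 1.75, 2.49, 2.56 and 3.61 CPM in Supraspinatus, 0.574, 1.72, 1.98 and 3.44 in Patellar, 0.338, 0.31, 0.205 and 0.476 in Flexor and 0.54, 0.298, 0.43 and 0.337 in Achilles. Every Supraspinatus and Patellar library was above every Flexor and Achilles library. For Efna2, Supraspinatus minus Flexor was 2.96 ± 0.45 (adjusted p = 0.00013), Supraspinatus minus Achilles 2.69 ± 0.45 (adjusted p = 0.00027), Patellar minus Flexor 2.53 ± 0.45 (adjusted p = 0.00022) and Patellar minus Achilles 2.26 ± 0.44 (adjusted p = 0.00091).

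Efna5 stood at 0.53, 1.15, 0.965 and 1.45 CPM in Supraspinatus, 5.01, 6.07, 8.71 and 4.82 in Patellar, 3.33, 3.03, 4.0 and 2.22 in Flexor and 3.75, 3.23, 3.69 and 5.63 in Achilles. Supraspinatus libraries were all at 1.45 CPM or below and all others at 2.22 or above. The log2 difference was -2.59 ± 0.32 (adjusted p = 6.4e-06) against Patellar, -1.62 ± 0.31 (adjusted p = 0.00094) against Flexor and -1.99 ± 0.31 (adjusted p = 0.00018) against Achilles. Efna3 averaged 0.546 ± 0.054, 0.446 ± 0.196, 0.212 ± 0.0615 and 0.122 ± 0.0299 CPM in Supraspinatus, Patellar, Flexor and Achilles, and 14.1% of its exon length overlaps an antisense gene. For Efna3, Supraspinatus minus Achilles was 2.15 ± 0.37 (adjusted p = 0.00037), Patellar minus Achilles 1.84 ± 0.38 (adjusted p = 0.0013), Supraspinatus minus Flexor 1.36 ± 0.36 (adjusted p = 0.0093) and Patellar minus Flexor 1.04 ± 0.37 (adjusted p = 0.026). The Efna3 call in Patellar minus Flexor was lost in 6 of 15 other settings, which included leaving out Patellar replicates 1 or 3 or Flexor replicates 3 or 4 (adjusted p up to 0.1). Efna4 did not pass.

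Of the 8 EphA receptor genes tested, 5 were lower in Supraspinatus than in Achilles, beside 16.7% of all genes, and 1, Epha7, was higher, beside 16.9%. Epha5 (ENSMUSG00000029245, chromosome 5, 84054761 to 84417382), a receptor of ephrin-A ligands such as ephrin-A5, stood at 0.433, 0.367, 0.476 and 0.524 CPM in Supraspinatus, 11, 4.77, 7.6 and 10.1 in Patellar, 2.14, 4.04, 2.34 and 2.57 in Flexor and 2.07, 3.38, 1.74 and 1.75 in Achilles. Supraspinatus libraries were all at 0.524 CPM or below, and every Patellar library was above every Flexor and Achilles library. Supraspinatus minus Patellar was -4.21 ± 0.34 (adjusted p = 1.2e-07), Supraspinatus minus Flexor -2.62 ± 0.32 (adjusted p = 1.6e-05) and Supraspinatus minus Achilles -2.31 ± 0.32 (adjusted p = 5.9e-05). For Epha5, Patellar minus Flexor was 1.59 ± 0.3 (adjusted p = 0.00041) and Patellar minus Achilles 1.9 ± 0.31 (adjusted p = 0.00018).

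Epha3 stood at 2.36, 1.11, 1.8 and 3.03 CPM in Supraspinatus, 12.3, 11.4, 6.18 and 11.8 in Patellar, 3.38, 4.63, 4.97 and 4.43 in Flexor and 9.8, 8.13, 5.98 and 12.9 in Achilles. Supraspinatus libraries were the 4 lowest, and Patellar replicate 3 was below the other Patellar libraries. Supraspinatus minus Patellar was -2.33 ± 0.32 (adjusted p = 1.6e-05), Supraspinatus minus Achilles -2.15 ± 0.31 (adjusted p = 9.5e-05), Supraspinatus minus Flexor -1.07 ± 0.31 (adjusted p = 0.016), Patellar minus Flexor 1.26 ± 0.3 (adjusted p = 0.0027) and Flexor minus Achilles -1.08 ± 0.3 (adjusted p = 0.023). The Epha3 call in Flexor minus Achilles was lost in 3 of 17 other settings, those without Flexor replicates 1 or 2 or Achilles replicate 4 (adjusted p up to 0.073). Epha4, an Eph receptor that binds both ephrin classes, stood at 3.92, 3.13, 3.21 and 5.65 CPM in Supraspinatus, 1.93, 5.74, 2.67 and 5.22 in Patellar, 7.34, 6.66, 4.16 and 10.9 in Flexor and 9.23, 8.4, 7.89 and 7.53 in Achilles. Achilles libraries were above all Supraspinatus and Patellar libraries and inside the Flexor range. For Epha4, Supraspinatus minus Achilles was -1.05 ± 0.34 (adjusted p = 0.024) and Patellar minus Achilles -1.08 ± 0.34 (adjusted p = 0.019). The Epha4 call in Supraspinatus minus Achilles was lost in 4 of 17 other settings, those without Supraspinatus replicates 1, 2 or 3 or Achilles replicate 1 (adjusted p up to 0.074).

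Epha7 stood at 9.66, 7.5, 13.8 and 12.8 CPM in Supraspinatus, 28.1, 11.6, 18.6 and 27.3 in Patellar, 5.69, 7.3, 6.56 and 6.15 in Flexor and 4.4, 6.53, 4.49 and 5.99 in Achilles. Patellar was highest, with replicate 2 inside the Supraspinatus range, and all Flexor and Achilles libraries were below both. Patellar minus Achilles was 2.0 ± 0.26 (adjusted p = 3.4e-05), Patellar minus Flexor 1.73 ± 0.26 (adjusted p = 5.4e-05), Supraspinatus minus Patellar -0.97 ± 0.26 (adjusted p = 0.0049) and Supraspinatus minus Achilles 1.03 ± 0.26 (adjusted p = 0.0059). Epha2, the EphA receptor with the highest level per kb, stood at 3.7, 2.8, 2.56 and 4.51 CPM in Supraspinatus, 3.01, 9.91, 7.22 and 11.4 in Patellar, 5.12, 5.14, 4.58 and 9.38 in Flexor and 6.73, 8.76, 6.14 and 7.85 in Achilles. Supraspinatus libraries lay below all Flexor and Achilles libraries and overlapped Patellar, and Flexor replicate 4 was above the other Flexor libraries. For Epha2, Supraspinatus minus Patellar was -1.22 (adjusted p = 0.0072), a call lost in 0 of 16 other settings. Supraspinatus minus Achilles was -1.12 ± 0.34 (adjusted p = 0.019). The Epha2 call in Supraspinatus minus Achilles was lost in 3 of 17 other settings, those without Supraspinatus replicates 2 or 3 or Achilles replicate 2 (adjusted p up to 0.064). Epha6 held 1 count in 1 of the Supraspinatus libraries and 1 in 1 of the Patellar libraries, against 0.445, 0.37, 0.178 and 0.996 CPM in Flexor and 0.47, 0.0198, 1.13 and 0.711 in Achilles. It passed in all 4 comparisons of those pairs, and no fold is given against so few counts.

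The transmembrane ephrin-B ligands were low to moderate. Efnb2, a marker of arteries, stood at 4.84, 5.45, 3.4 and 4.79 CPM in Supraspinatus, 5.1, 6.63, 3.44 and 1.67 in Patellar, 2.99, 2.7, 2.52 and 2.79 in Flexor and 8.64, 5.45, 7.48 and 4.97 in Achilles. Flexor libraries lay below all Supraspinatus and Achilles libraries, and Patellar overlapped all. Flexor minus Achilles was -1.27 ± 0.32 (adjusted p = 0.013). Efnb3 stood at 0.249, 0.223, 0.159 and 0.399 CPM in Supraspinatus, 0.345, 0.391, 0.972 and 0.135 in Patellar, 3.8, 2.59, 1.37 and 2.56 in Flexor and 2.08, 1.37, 1.55 and 1.68 in Achilles. Flexor and Achilles libraries were all at 1.37 CPM or above, and all Supraspinatus and Patellar libraries at 0.972 CPM or below. Schwann cell and nerve, pericyte and smooth muscle, and osteoblast and bone markers also took more of the counts in Flexor and Achilles. Their part in the Efnb3 differences was not tested. For Efnb3, Supraspinatus minus Flexor was -3.32 ± 0.48 (adjusted p = 7.8e-05), Supraspinatus minus Achilles -2.69 ± 0.47 (adjusted p = 0.00043), Patellar minus Flexor -2.52 ± 0.47 (adjusted p = 0.00036) and Patellar minus Achilles -1.89 ± 0.47 (adjusted p = 0.0046). Efnb1, the ephrin-B with the highest level per kb, stood at 11.2, 11.6, 10.5 and 12.3 CPM in Supraspinatus, 12.4, 25, 6.08 and 7.29 in Patellar, 15.4, 12.6, 8.68 and 12.1 in Flexor and 25.1, 22.9, 20.9 and 23.1 in Achilles. Achilles was above every Supraspinatus and Flexor library, and Patellar replicate 2 lay among the Achilles values. Supraspinatus minus Achilles was -1.01 ± 0.32 (adjusted p = 0.024). The Efnb1 call in Supraspinatus minus Achilles was lost in 4 of 17 other settings, those without Supraspinatus replicates 1, 2 or 3 or Achilles replicate 1 (adjusted p up to 0.064).

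Ephb4, the venous receptor of ephrin-B2, stood at 37.9, 31.9, 34.2 and 47.6 CPM in Supraspinatus, 12.1, 61.7, 37.9 and 29.4 in Patellar, 28.7, 25.2, 21 and 24.9 in Flexor and 62.5, 51.4, 41.2 and 52.5 in Achilles. Patellar spanned nearly the whole range of the other tendons, and Flexor lay below Achilles throughout. For Ephb4, Flexor minus Achilles was -1.06 ± 0.32 (adjusted p = 0.033), and the test over all 4 tendons was not passed. The Ephb4 call in Flexor minus Achilles was lost in 9 of 17 other settings, which included leaving out Flexor replicates 1, 2, 3 or 4 or Achilles replicates 1, 2 or 4 (adjusted p up to 0.1). Ephb3 averaged 8.26 ± 4.72 CPM in Supraspinatus, 14.5 ± 4.48 in Patellar, 3.79 ± 0.855 in Flexor and 5.37 ± 0.858 in Achilles, with Patellar minus Flexor at 1.93 ± 0.33 (adjusted p = 0.00015). In Supraspinatus minus Patellar Ephb3 was at -0.81 ± 0.32 (adjusted p = 0.042), and at -1.28 without Supraspinatus replicate 4. The Ephb3 call in Supraspinatus minus Patellar was lost in 7 of 16 other settings, which included leaving out Supraspinatus replicates 1, 2 or 3 or Patellar replicates 3 or 4 (adjusted p up to 0.13). Ephb6, whose kinase domain is inactive, averaged 4.08 ± 1.51, 10.1 ± 5.81, 19.5 ± 8.22 and 15.5 ± 4.9 CPM in the same order, with Supraspinatus minus Flexor at -2.26 ± 0.41 (adjusted p = 0.0006). In Supraspinatus minus Patellar Ephb6 was at -1.32 ± 0.4 (adjusted p = 0.011), and at -0.84 without Patellar replicate 2. The Ephb6 call in Supraspinatus minus Patellar was lost in 1 of 16 other settings, that without Patellar replicate 2 (adjusted p up to 0.062). Ephb1 did not pass in any comparison, and Ephb2 passed in Patellar minus Flexor, at 1.41 ± 0.51 (adjusted p = 0.03), and in Supraspinatus minus Patellar, at -1.33 ± 0.51 (adjusted p = 0.037). The Ephb2 value in Supraspinatus minus Patellar was -2.11 without Supraspinatus replicate 4. The Ephb2 call in Patellar minus Flexor was lost in 5 of 15 other settings, those without Patellar replicates 1 or 4 or Flexor replicates 1, 2 or 3 (adjusted p up to 0.087). The Ephb2 call in Supraspinatus minus Patellar was lost in 8 of 15 other settings, which included leaving out Supraspinatus replicates 1, 2 or 3 or Patellar replicates 1, 2 or 4 (adjusted p up to 0.1).

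Schwann cell and nerve markers varied between libraries of 1 tendon, and some guidance genes varied with them. In Achilles the share of these markers was lowest in replicate 2, at 0.105% of counts, and highest in replicate 3, at 0.642%, and in Flexor lowest in replicate 3, at 0.205%, and highest in replicate 4, at 0.581%. Of the 66 tested guidance genes, 10 had their lowest and highest library of both tendons in the same places (Epha6, Ephb1, Ephb6, Plxnb1, Plxnb3, Sema3b, Sema4g, Sema5a, Sema6d and Slit2), beside 2.03% of all genes tested. For skeletal muscle markers the number was 2 (Sema4d and Slit1), beside 3.36%. The count was made for every marker list, and no list but Schwann cell and nerve gave more than 3 (macrophage, beside 1.59%). In Achilles, skeletal muscle markers and pericyte and smooth muscle markers also had their lowest share in replicate 2 and their highest in replicate 3. Tendon, macrophage, cartilage, and osteoblast and bone markers had the reverse there. In Flexor, cartilage markers had their lowest and highest share in the same replicates as Schwann cell and nerve markers. Endothelial, lymphatic endothelial, macrophage and red blood cell markers had the reverse in Flexor. In both tendons the 10 genes thus had their highest library where macrophage markers had their lowest share, and their lowest where these had their highest. The count was chosen after the values were seen. All 12 Schwann cell and nerve markers were detected in each tendon, and their part in the tendon differences of these genes was not tested.

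**Figure D5:**
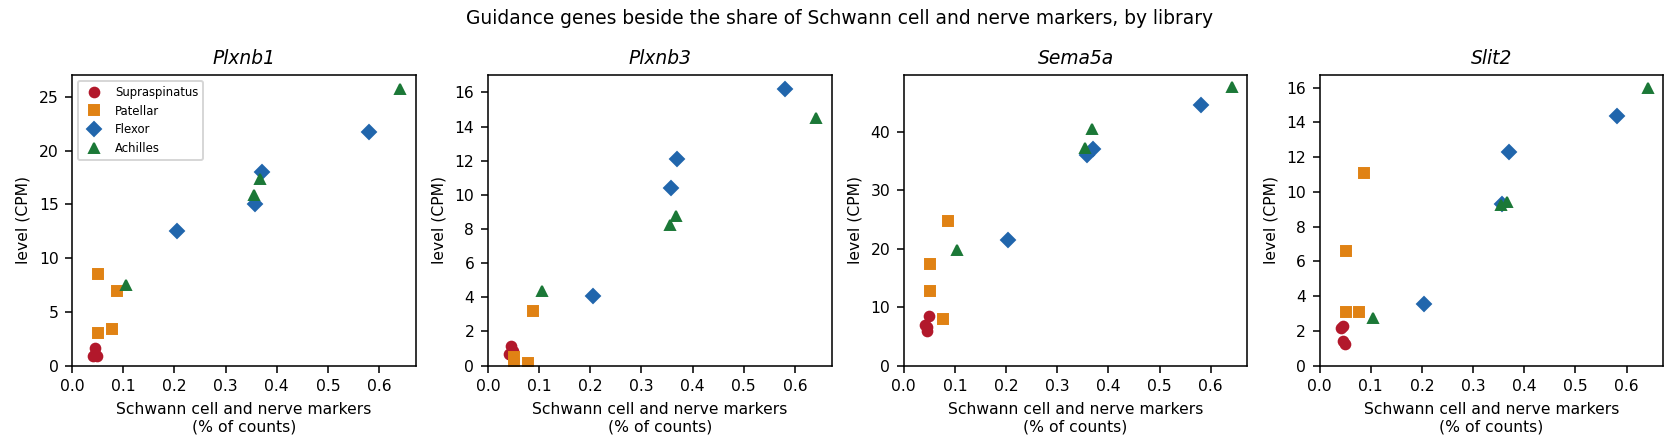
Level in CPM of 4 guidance genes against the share of Schwann cell and nerve markers in percent of counts, with 1 point per library and a symbol for each tendon. The 4 genes are among the 10 picked because their lowest and highest Flexor and Achilles libraries were those of the marker share. The 4 also averaged higher in Flexor and Achilles than in Supraspinatus and Patellar, which not all of the 10 did. Sema3b and Sema4g averaged highest in Patellar, and Sema6d averaged 25.2 CPM in Supraspinatus and 22.8 in Flexor. By that choice, the library with the highest share (0.581% of counts in Flexor, 0.642% in Achilles) has the highest level of each gene.

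Genes around the guidance receptors were counted from 2 lists. The first held 62 genes of downstream signalling, all tested. Of these, 45 passed the test over all tendons, or 72.6%, beside 64.9% of all genes. In Supraspinatus minus Patellar 30 passed (13 higher and 17 lower), or 48.4%, beside 53.3% of all genes. Supraspinatus minus Flexor gave 23 (17 and 6), or 37.1% beside 27.1%, and Supraspinatus minus Achilles 27 (17 and 10), or 43.5% beside 33.6%. Patellar minus Flexor gave 34 (24 and 10), or 54.8% beside 50.3%, Patellar minus Achilles 28 (21 and 7), or 45.2% beside 38.4%, and Flexor minus Achilles 13 (3 and 10), or 20.97% beside 16.2%. The median log2 difference over the list was 0.025, 0.076, 0.12, 0.41, 0.23 and -0.13 in these 6 comparisons, beside -0.081, -0.072, -0.038, -0.0095, -0.014 and 0.00040 over all genes tested. Rac1, a small GTPase that acts on actin, averaged 147 ± 22.1 CPM in Supraspinatus, 76 ± 30.5 in Patellar, 21.3 ± 1.89 in Flexor and 31.4 ± 4.55 in Achilles. Pak3, a kinase regulated by Rac and Cdc42, averaged 1.24 ± 0.359, 13.8 ± 5.81, 3.12 ± 0.591 and 1.79 ± 0.139 CPM in the same order. Cfl2, a cofilin known from skeletal muscle, averaged 676 ± 81.4, 91.6 ± 24.2, 506 ± 90.3 and 501 ± 162 CPM, and muscle markers had their lowest share in Patellar too. The part of muscle in the Cfl2 levels was not tested.

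The second list held 55 other guidance cues and receptors, of which 52 were tested and 42 passed over all tendons, or 80.8%, beside 64.9% of all genes. In Supraspinatus minus Patellar 26 passed (11 higher and 15 lower), or 50%, in Supraspinatus minus Flexor 28 (15 and 13), or 53.8%, and in Supraspinatus minus Achilles 28 (14 and 14), or 53.8%. In Patellar minus Flexor 25 passed (13 and 12), or 48.1%, in Patellar minus Achilles 23 (10 and 13), or 44.2%, and in Flexor minus Achilles 12 (5 and 7), or 23.1%. The shares of all genes are those given for the first list. The median log2 difference over the second list was -0.17, 0.063, -0.12, 0.080, -0.073 and -0.18 in the same 6 comparisons, beside the same medians of all genes. No share or median of either list was tested against all genes. Gpc1, a heparan sulfate proteoglycan known to bind Slit, averaged 403 ± 59.4 CPM in Supraspinatus, 64.1 ± 19.3 in Patellar, 67.7 ± 14.8 in Flexor and 91.1 ± 2.67 in Achilles. Ptprd, a receptor phosphatase, averaged 13.3 ± 3.86, 82.9 ± 23.7, 5.79 ± 1.28 and 26.5 ± 6.26 CPM in the same order. Lrig1 averaged 44.5 ± 7.66, 17.4 ± 3.0, 13.4 ± 1.57 and 15.2 ± 0.832 CPM, and Rtn4, which encodes Nogo, 681 ± 27.2, 112 ± 28.8, 373 ± 50.2 and 253 ± 77.1 CPM. Rtn4 levels ran in the same order of tendons as muscle markers, whose part in them was not tested. Each of these 7 genes passed the test over all tendons.

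The authors' deposited table of comparisons listed 50 of the 69 guidance genes. At an adjusted p under 0.05, the authors' deposited table called 27, 29, 28, 29, 26 and 21 of them in the comparisons from Supraspinatus minus Patellar to Flexor minus Achilles, in the order used above. Of those in the authors' deposited table, 24, 26, 28, 28, 22 and 18 also passed here, and each of them had the same direction.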

How the data were processed

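RNA was measured in 16 libraries of 4 tendons, 4 per tendon, assigned by their labels. RNA was column-purified with DNase and made into Illumina libraries, per the labels' protocols. The authors deposited raw counts of reads per gene. HISAT2, FastQC, edgeR and build mm10 (GRCm38) are named in the submitters' processing notes. The sources used here do not name the counter, its strand setting or the annotation, so counts of genes overlapped by an antisense gene are uncertain. The authors' deposited table of log2 fold changes and p-values was used only for the final count of shared calls. Equal mouse numbers in different tendons are not stated to mark 1 animal. Nothing says whether libraries of a tendon came from separate animals beyond those numbers, so p-values measure the spread between these libraries. No pair of libraries of a tendon agreed within sampling noise (chi-square per gene of 53.14 or more in 24 pairs).

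The counts were tested with edgeR 4.0.16 in R 4.3.3 (filterByExpr by tendon, TMM, robust quasi-likelihood fit to all 16 libraries, 1 mean per tendon). The 6 pairwise tests and a test over all tendons were 2-sided, with Benjamini-Hochberg adjustment over the 23754 genes tested and a threshold of 0.05. Differences are log2, first-named tendon minus the second, ± standard error (the difference over the root of F). Positions and exon lengths are from GENCODE for GRCm38. The guidance genes, the other lists and the rule for naming were chosen with earlier results of these data known. Per-library values were given to members past the threshold with the largest differences and no overlap between groups at a mean of at least 1 CPM, to the most significant distinct members, to each family's most abundant member and to a panel of 18 genes. Up to 4 genes of each other list were named, those with the smallest p over all tendons, and 1 of these is not reported here. Alternatives were median-ratio scaling, no filter, a mean of at least 5 CPM, limma-voom 3.58.1, DESeq2 1.42.0, a block for the mouse number, leaving out 7 rRNA-like genes, only the 8 libraries of a pair, no Patellar libraries, and leaving out each library. In simulated counts for 23754 genes, 200 were changed. In Flexor minus Achilles 33% of genes changed 2-fold and 71% of those changed 4-fold were recovered, with 5 false among 109 calls. The 2-fold recovery ran from 25% (Patellar minus Flexor) to 39% (Supraspinatus minus Patellar). At 4-fold the lowest was 62% (Supraspinatus minus Achilles) and 71% the highest. Far fewer genes were changed there than passed in the real comparisons, so these rates need not hold for those. Figures were drawn with matplotlib 3.10.9.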

Additional observations from a re-analysis of the deposited data

Results flagged for a closer look

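The values below, in CPM, lay far from the other 3 libraries of their tendon, with a gap above Dixon's 95% critical value for groups of 4. There were 22 among the 164 groups of the 41 genes named by rule. Groups with very few counts in all libraries (Dcc in Supraspinatus, Flexor and Achilles, and Slit1 in Patellar) could not be flagged. Chance gives about 1 in 20 groups if values are normal and groups independent, but the same libraries served for every gene. Patellar replicate 2 and Supraspinatus replicate 4 had 4 each.

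Patellar replicate 2 was the highest Patellar library for Plxnb3 (3.22, next 0.511), Robo1 (15.3, next 5.65), Robo2 (1.82, next 0.322) and Robo4 (30.9, next 11.6). It also had the largest share of endothelial markers of the 4 Patellar libraries, 0.118% of counts, and the smallest share of rRNA-like genes, 13.2%, whose part in these values was not tested. Patellar replicate 3 was highest for Dcc (0.347) and Unc5a (2.53) and lowest for Epha3 (6.18, next 11.4). Patellar replicate 4 was highest for Ntn4 (164, next 86.9).

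Supraspinatus replicate 4 was the highest library of its tendon for Nrp1 (104), Plxnd1 (30.2), Sema4b (3.10) and Sema4c (25.4). Supraspinatus replicate 2 was highest for Ntn1 (123) and lowest for Robo4 (17.7) and Sema4d (54.8), and replicate 3 was lowest for Robo2 (1.15). Flexor replicate 4 was highest for Epha2 (9.38) and lowest for Ntn1 (41.6) and Slit3 (17.8). In Achilles, replicate 1 was highest for Sema3f (14.2), replicate 3 lowest for Efna1 (20.5) and replicate 4 lowest for Robo4 (33.2).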

How the results depend on the processing

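Of the 179 pairs of a guidance gene and a comparison past the threshold, 46 were lost in at least 1 setting and 0 changed direction in any setting run. The number of members distinct to Achilles, 3, was 5 with a mean of at least 5 CPM, 6 with DESeq2 and 7 with limma-voom. Without each library in turn, members called ran from 24 to 33 (Supraspinatus minus Patellar), 26 to 36 (Supraspinatus minus Flexor), 27 to 37 (Supraspinatus minus Achilles), 34 to 42 (Patellar minus Flexor), 25 to 37 (Patellar minus Achilles), 11 to 22 (Flexor minus Achilles) and 49 to 58 (any difference). Distinct members ran from 10 to 15 in Supraspinatus, 7 to 17 in Patellar, 3 to 7 in Flexor and 1 to 6 in Achilles, and called members of the lists from 41 to 49 (downstream signalling) and 39 to 45 (other cues). The cause was not tested. Scaling by median ratios moved the median of all genes by at most 0.034 on the log2 scale.

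The mouse numbers did not meet the rule for pairing, which asked for a correlation over 0.1 in every same-numbered pair of libraries: deviations correlated at a mean of 0.032 over 24 pairs (-0.218 to 0.411), 5 of them over 0.1, and in 6 of the 24 the correlation was best with the own number. Of the 6, 3 joined Supraspinatus and Flexor, at 0.238, 0.294 and 0.411 for mice 1, 2 and 4, and mouse 3 was at -0.039 there. With the number as a replicate block, members called were 28, 31, 33, 39, 31 and 16 in the 6 comparisons in the order of the report and 53 for any difference, and 13, 9, 4 and 4 were distinct to Supraspinatus, Patellar, Flexor and Achilles. Patellar libraries were the shallowest and held the most rRNA-like reads, and genes such as Slit1, Epha6 and Dcc rest on few counts there.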
